A study of Mus musculus with 6 samples.

Results

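The Peg3 and Usp29 locus on mouse chromosome 7 was taken as the span of both genes with 5 kb on either side, chr7:6698892-6972219 in mm10. Its members were all CpGs of this window with at least 10 reads, summed over the 2 replicates, in each of the 3 cell types. This gave 61 CpGs of the 1106981 that could be compared genome-wide. Another 13 CpGs of the window had reads but too few in at least 1 cell type, and the window holds 2485 CpGs in its sequence, so that most of the locus was not measured.

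The libraries were made by RRBS, which reads short CpG-rich fragments cut by MspI after bisulfite has turned cytosines without methylation into uracil. Each of the 3 cell types had 2 libraries, from male cells kept with LIF, serum, CHIR99021, and PD0325901, per the labels on feeder fibroblasts that were taken away before collection. The paper's methods name gelatin-coated plates for this culture and no feeder cells. C-iPSCs were induced from OG2-MEFs, embryonic fibroblasts with an Oct4-GFP reporter made from mice of the strains 129S4/SvJaeJ, C57BL/6J, and CBA/CaJ, by bFGF and a chemical cocktail. It held VPA, CHIR99021, E-616452, tranylcypromine, forskolin, AM580, and EPZ004777, and in a later stage DZNep, 5-Aza-2′-deoxycytidine, and SGC0946 in place of EPZ004777. 4F-iPSCs were induced from OG2-MEFs by retroviral Oct4, Sox2, Klf4, and c-Myc, and colonies with GFP were picked for both. The mESCs were of the E14 line, made without reprogramming. Both iPSC types were at passages 5 to 10 and the mESCs at passages 20 to 30, so cell type and passage cannot be told apart when either iPSC type is set against mESCs. Whether replicates were separate lines or cultures is not given in the sources used here, and the p-values of permutation tests, limma, and the quasi-binomial model measure only the spread between these libraries. Those of Fisher's test on summed reads cover the counting error of reads alone, while the replicates spread more than that (mean chi-square between replicates 2.53 for C-iPSCs, 1.75 for 4F-iPSCs, 1.59 for mESCs).

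Peg3 encodes a zinc finger protein and Usp29, transcribed in the opposite direction, a ubiquitin-specific protease. Both are imprinted and expressed from the paternal allele: the region around their common start is methylated in the egg and not in sperm, and the maternal mark is kept through the demethylation of the early embryo by KRAB zinc finger proteins such as ZFP57. A cell with normal imprints therefore carries methylation there on the maternal allele alone. The reads used here do not separate alleles, so that methylation of part of the cells and of part of the alleles cannot be told apart.

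The annotated starts of Peg3 and Usp29 were 162 bp apart on opposite strands. A CpG island found from the sequence, 1397 bp long with 73 CpGs, covered the Peg3 start and the first exon and part of the first intron of Peg3. Of these CpGs, 5 had reads, and all of them lay in the first exon of Peg3, in the untranslated part, on a single stretch of 67 bp between 94 and 159 bp downstream of the Peg3 start. They share read pairs and are close to 1 observation. A second island of 482 bp, inside an intron of Usp29 and near an inner Usp29 start 217 kb from the first one, held 6 compared CpGs. The remaining 50 compared CpGs lay outside both islands, 6 in the last coding exon of Peg3, 43 in introns of Usp29, and 1 in an untranslated exon of Usp29. The whole window held 19 islands, 3 of them with compared CpGs, and only islands within 1 kb of an annotated start were used. The 50 CpGs thus include those of the third. A further island of 322 bp, 329 bp from the Usp29 start, had no reads. The sequences on which the results turn were read from GRCm38, the same assembly as mm10, on the plus strand and are given so that the measured positions can be seen. The first is a site in Peg3 exon 1 (chr7:6730276-6730304), the second part of the stretch between the annotated starts of both genes (chr7:6730463-6730558). The third is part of the island of the inner Usp29 start (chr7:6948241-6948387), and the others are intronic stretches of Usp29, at chr7:6914356-6914431 with the deepest CpG and at chr7:6952758-6953004 with 8 CpGs. Capitals mark the compared CpGs, and in the second sequence, where no CpG had reads, all CpGs.
Peg3 exon 1 site: ctaCGcacacacccCGaccagggtCGgca
between the starts: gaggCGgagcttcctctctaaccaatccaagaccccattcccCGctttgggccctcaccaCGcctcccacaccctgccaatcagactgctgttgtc
inner Usp29 start: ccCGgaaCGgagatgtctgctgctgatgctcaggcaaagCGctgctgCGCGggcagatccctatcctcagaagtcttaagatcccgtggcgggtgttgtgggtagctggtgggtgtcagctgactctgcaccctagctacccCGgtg
Usp29 intron, deepest CpG: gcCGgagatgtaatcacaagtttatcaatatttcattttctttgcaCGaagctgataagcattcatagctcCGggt
Usp29 intron, 8 CpGs: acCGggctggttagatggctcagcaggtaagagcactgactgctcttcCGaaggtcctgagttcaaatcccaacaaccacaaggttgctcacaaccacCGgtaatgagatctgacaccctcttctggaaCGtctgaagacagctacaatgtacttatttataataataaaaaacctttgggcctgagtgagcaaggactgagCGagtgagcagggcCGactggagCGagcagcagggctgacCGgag

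The island of the shared start was also searched for 2 short motifs on both strands. The motif TGCCGC, which ZFP57 binds when it is methylated, occurred 7 times, between 254 and 1135 bp downstream of the Peg3 start. In windows of the same length and offset at 77163 annotated starts, 26.7% held it at least once and 0.0661% at least 7 times. The motif AAGATGGC, the core of YY1 sites, occurred 2 times in the island, against 11.1% of the windows with at least 1 and 0.661% with at least 2. Between the island and 4 kb downstream of the Peg3 start, AAGATGGC occurred another 9 times and TGCCGC 1 time. None of these motifs lay in the 67 bp that had reads, so that the methylation of the CpG within TGCCGC was not measured there, and the island of the inner Usp29 start held neither motif.

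Depth in the locus differed between libraries. The 61 CpGs had a median of 48 and 36 reads in mESC replicates 1 and 2, 53 and 38 in C-iPSC replicates 1 and 2, and 59 and 52 in 4F-iPSC replicates 1 and 2. In the island of the shared start, a CpG had between 18 and 65 reads in mESC replicate 2, the least deep library there, and between 58 and 194 in 4F-iPSC replicate 2, the deepest. Levels are methylated reads as a share of reads, and their 95% Wilson intervals cover counting error only, since PCR copies of a molecule cannot be recognized without molecular identifiers.

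C-iPSCs had low methylation at the shared start of Peg3 and Usp29, mESCs were at intermediate levels, and 4F-iPSCs were higher still. The mean level of the 5 CpGs was 36.5% and 43.4% in mESC replicates 1 and 2, 6.07% and 9.94% in C-iPSC replicates 1 and 2, and 56.2% and 63.9% in 4F-iPSC replicates 1 and 2. The libraries of each cell type stood apart from those of both others, and the order C-iPSC, mESC, 4F-iPSC held at all 5 CpGs with the replicates summed. The mean of C-iPSCs was 8.01% ± 2.74 (SD, n = 2 libraries), that of mESCs 39.9% ± 4.86 (SD, n = 2), and that of 4F-iPSCs 60.1% ± 5.39 (SD, n = 2). C-iPSCs minus mESCs thus gave -31.9 percentage points, while 4F-iPSCs were 20.1 points above mESCs and 52.1 points above C-iPSCs. Each difference gave p = 0.333 in a two-sided exact permutation test, which is the smallest p that 2 libraries against 2 allow.

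The 3 CpGs in the middle of the stretch, which had the most reads and are the ones in capitals in the exon 1 site, were the least methylated in C-iPSCs. At the CpG 142 bp downstream of the Peg3 start, 3 of 115 and 6 of 125 reads were methylated in C-iPSC replicates 1 and 2, or 2.61% (95% Wilson interval 0.891 to 7.39%) and 4.8% (2.22 to 10.1%). In mESC replicates 1 and 2, 41 of 115 and 29 of 64 reads were methylated there, or 35.7% (27.5 to 44.7%) and 45.3% (33.7 to 57.4%). In 4F-iPSC replicates 1 and 2 they were 84 of 154 and 113 of 194, or 54.5% (46.7 to 62.2%) and 58.2% (51.2 to 65.0%). No interval of a C-iPSC library reached those of mESCs or 4F-iPSCs, whereas the interval of mESC replicate 2 overlapped those of both 4F-iPSC libraries. The outer 2 CpGs, 94 and 159 bp downstream, were at 16.1% and 12.99% in C-iPSCs with the replicates summed. The CpG at 94 bp, with 18 to 58 reads per library, spread most between the replicates of mESCs, at 31.4% and 55.6%, and of 4F-iPSCs, at 65.0% and 84.5%.

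**Figure D1:**
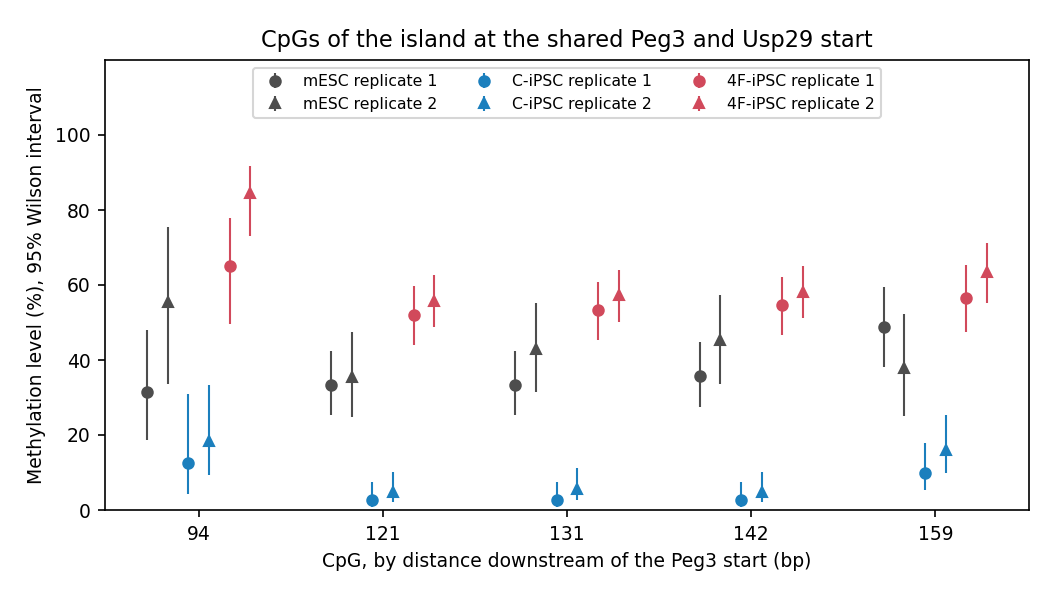
Methylation level in percent of each of the 5 CpGs at the shared start of Peg3 and Usp29 (x axis: bp downstream of the Peg3 start) in each of the 6 libraries, with 95% Wilson intervals. C-iPSC libraries lie between 2.61% and 18.4%, below all mESC and 4F-iPSC libraries at each CpG.

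Single CpGs were compared with Fisher's exact test on summed reads and called strongly hypermethylated or hypomethylated at an unadjusted p under 0.05 and a level difference above 0.333. Shares of all compared CpGs are given for these thresholds with all libraries. For counts without 1 library they are not given, so those counts cannot be set against the genome. Between 4F-iPSCs and C-iPSCs, all 5 CpGs of the shared start were strongly hypermethylated in 4F-iPSCs, with differences from 47.3 to 60.4 percentage points. None of the other 56 CpGs of the locus was called in that direction, against 1.35% of all compared CpGs, and none was called in the other direction, against 0.0285%. A model that takes the spread between libraries into account (quasi-binomial, Benjamini-Hochberg adjusted p under 0.05, same size of difference) called the same 5 CpGs and no other, with backgrounds of 0.633% and 0.0144%. Smaller differences between both iPSC types were measured elsewhere. Outside both islands 40 of 50 CpGs had a higher summed level in 4F-iPSCs and 10 a lower one. Of all compared CpGs, 65.8% were higher and 21% lower in 4F-iPSCs, and the others had equal levels. At an unadjusted p under 0.05 by Fisher's exact test, 17 of the 50 were higher and 1 lower, beside 22.2% and 0.433% of all compared CpGs. The CpGs at chr7:6914402 (17.5 points) and chr7:6914427 (14.8 points) passed the adjusted p of the model (0.00186 and 0.0171, with the dispersion shrunken by limma) and missed only the threshold of size. Without C-iPSC replicate 2, Fisher's test called 7 CpGs of the locus in place of 5.

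Against mESCs, 1 CpG of the locus was strongly hypomethylated in C-iPSCs, the one 142 bp downstream of the Peg3 start, by Fisher's test and by the quasi-binomial model (adjusted p = 9.72e-07, with the dispersion shrunken by limma). Such calls were rare genome-wide, at 0.0374% of the compared CpGs by Fisher's test and 0.0114% by the model. The other 4 CpGs of the shared start also had lower summed levels in C-iPSCs, with differences from -32.5 to -23.5 percentage points, and missed the threshold of size. The CpG at 94 bp also missed that of the model's adjusted p, at 0.421 with dispersion by limma. In the other direction, 5 CpGs were strongly hypermethylated in C-iPSCs by Fisher's test and 2 by the model, with backgrounds of 2.9% and 1.49%. All of these 5 lay in introns of Usp29 outside both islands. Without C-iPSC replicate 1, 11 CpGs were hypermethylated by Fisher's test, and without mESC replicate 1 or C-iPSC replicate 2, 3 were hypomethylated.

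Between 4F-iPSCs and mESCs, 16 of the 61 CpGs were strongly hypermethylated in 4F-iPSCs by Fisher's test and 13 by the model, against 14.3% and 13.1% of all compared CpGs. Of the 16, 1 lay at the shared start, the CpG at 94 bp, 1 in the last exon of Peg3, and 14 in introns of Usp29. None was strongly hypomethylated in 4F-iPSCs, with backgrounds of 0.0333% and 0.0249%. Only 3 of the 61 CpGs had a lower summed level in 4F-iPSCs than in mESCs at all, beside 16.9% of all compared CpGs. Without mESC replicate 1, Fisher's test called 8 in place of 16.

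**Figure D2:**
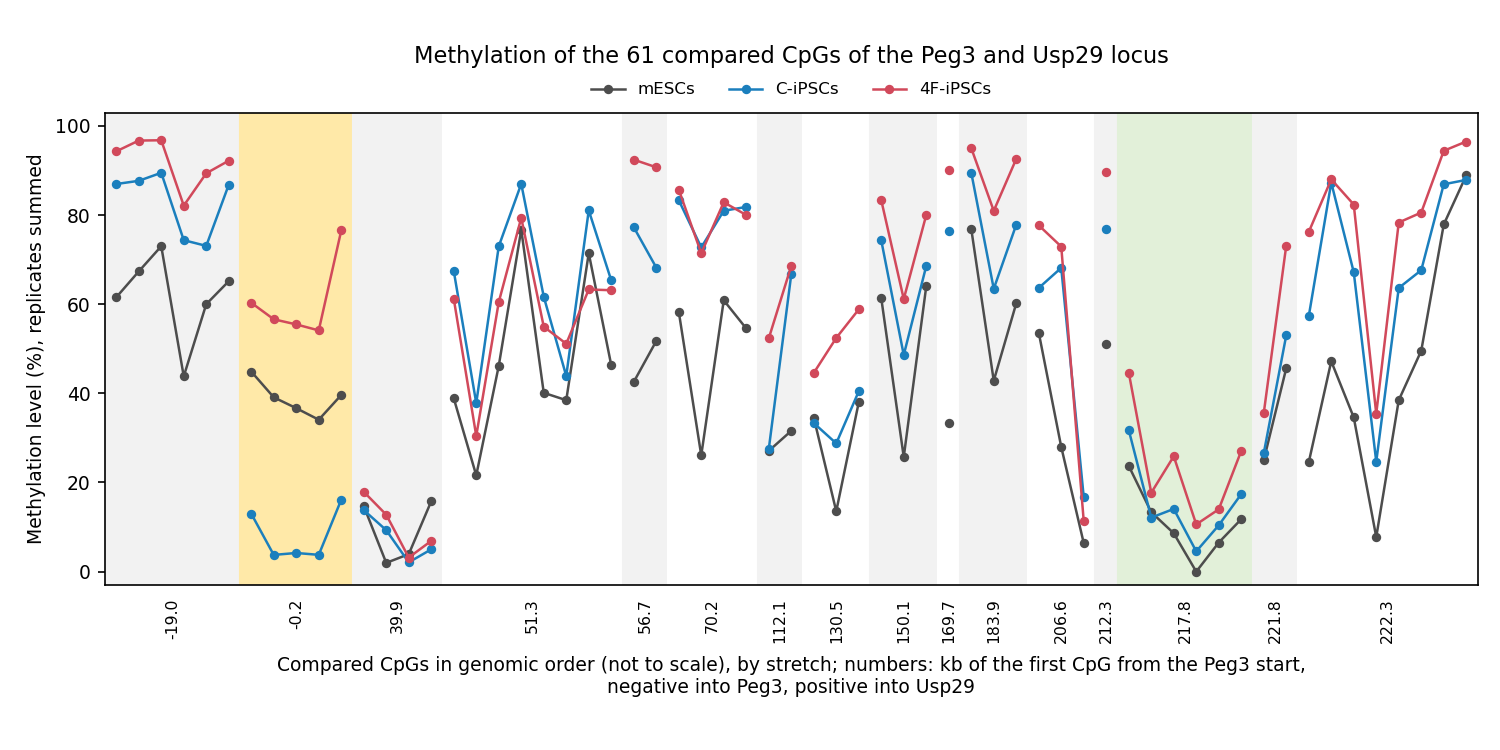
Methylation level in percent, replicates summed, of the 61 compared CpGs in genomic order for mESCs, C-iPSCs, and 4F-iPSCs, with the island of the shared start shaded in yellow, that of the inner Usp29 start in green, and the distance of each stretch from the Peg3 start in kb. C-iPSCs are the lowest of the 3 cell types at all 5 CpGs of the shared start, and mESCs are the lowest at 44 of the 50 CpGs outside both islands.

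Outside both islands the order of mESCs and C-iPSCs was the other way around. The mean level of the 50 CpGs was 40.3% and 47.0% in mESC replicates 1 and 2, 55.3% and 67.3% in C-iPSC replicates 1 and 2, and 66.9% and 67.8% in 4F-iPSC replicates 1 and 2. Both iPSC types were above mESCs in every library, and C-iPSC replicate 2 overlapped the 4F-iPSC libraries. With the replicates summed, 45 of these CpGs were higher and 5 lower in C-iPSCs than in mESCs, beside 60.2% and 23% of all compared CpGs. In 4F-iPSCs, 47 were higher and 3 lower than in mESCs, beside 68.4% and 16.9% of all compared CpGs. The means of C-iPSCs and 4F-iPSCs were 17.7 and 23.7 percentage points above that of mESCs, beside 6.51 and 12.1 points over all compared CpGs. The median differences per CpG were 17.3 and 25.3 points, beside 0.952 and 2.33 points over all compared CpGs. Those comparisons share the mESC libraries. Between 4F-iPSCs and C-iPSCs the difference of the means was 6.0 points, beside 5.58 points over all compared CpGs. The 6.0 points were less than the spread of the C-iPSC replicates (SD 8.50 points), with p = 0.667 in the exact permutation test. All compared CpGs, at 20.5% and 22.2% in mESC replicates 1 and 2, were not matched to these 50 CpGs for level.

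The contrast between the shared start and its surroundings was computed within each library. The mean of the shared start minus the mean of the CpGs outside both islands was -3.80 and -3.58 percentage points in mESC replicates 1 and 2, -49.2 and -57.4 points in C-iPSC replicates 1 and 2, and -10.6 and -3.93 points in 4F-iPSC replicates 1 and 2. In mESCs and 4F-iPSCs the start was thus close to the rest of the locus, and in C-iPSCs it lay far below it. The contrast differed by -49.6 points between C-iPSCs and mESCs and by 46.1 points between 4F-iPSCs and C-iPSCs, with p = 0.333 in the exact permutation test for each. Between 4F-iPSCs and mESCs it differed by -3.58 points, less than the gap between the 4F-iPSC replicates.

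**Figure D3:**
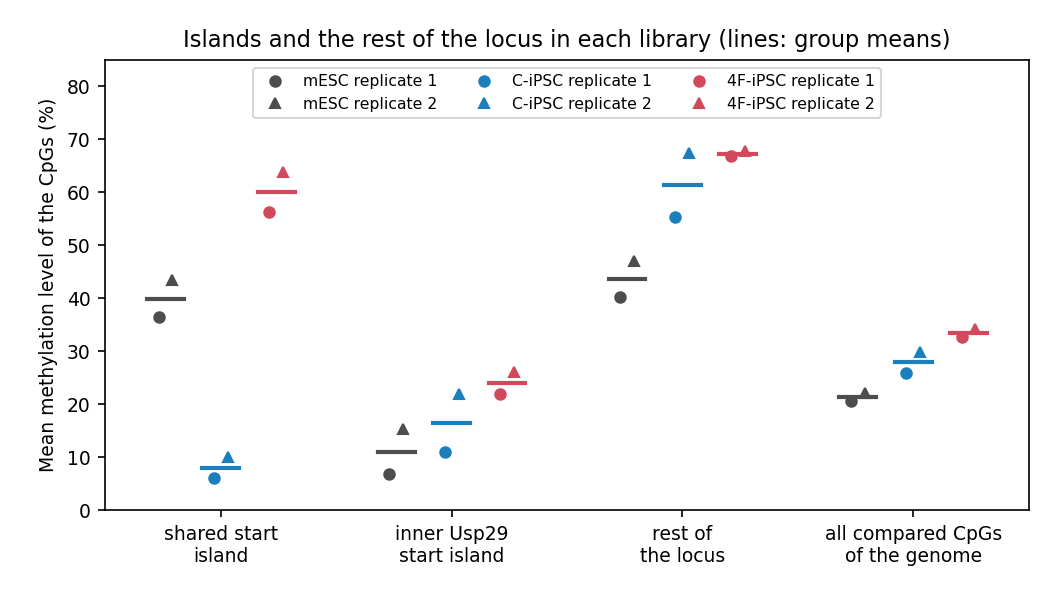
Mean methylation level in percent of the CpGs of the island of the shared start, the island of the inner Usp29 start, the rest of the locus, and all compared CpGs, with 1 point per library and a line at each group mean. C-iPSC libraries are at 6.07% and 9.94% at the shared start and at 55.3% and 67.3% in the rest of the locus.

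The island of the inner Usp29 start, 217 kb into the gene, was low in all libraries. Unlike at the first start, the mean of C-iPSCs was not below that of mESCs in this island. Its 6 CpGs, of which 5 lie in soft-masked repeat sequence, had mean levels of 6.71% and 15.3% in mESC replicates 1 and 2, 10.9% and 21.97% in C-iPSC replicates 1 and 2, and 21.8% and 26.0% in 4F-iPSC replicates 1 and 2. The mESC and C-iPSC libraries overlapped, with a difference of 5.43 points (p = 0.667, exact permutation test). Both 4F-iPSC libraries lay above both mESC libraries, with a difference of 12.9 points (p = 0.333, exact permutation test). Over the 11 CpGs of both islands, the mean levels of replicates 1 and 2 were 8.72% and 16.5% for C-iPSCs, 20.3% and 28.1% for mESCs, and 37.5% and 43.2% for 4F-iPSCs. C-iPSCs minus mESCs was -11.6 points, 4F-iPSCs minus mESCs 16.2 points, and 4F-iPSCs minus C-iPSCs 27.7 points, each at p = 0.333 in the exact permutation test. The first of these was -7.64 points without mESC replicate 2 and -7.66 points without C-iPSC replicate 1, and -19.3 points with the reads of all CpGs pooled. The same 11 CpGs set against the rest of the locus gave differences of -29.3, -7.52, and 21.7 points for C-iPSCs minus mESCs, 4F-iPSCs minus mESCs, and 4F-iPSCs minus C-iPSCs, again at an exact permutation p of 0.333 each. For the inner Usp29 start alone these were -12.3, -10.8, and 1.47 points, and with a stricter island rule, which kept the 5 CpGs of the shared start only, -48.2, -2.60, and 45.6 points.

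Beside the shared start, 4 stretches of the locus had at least 5 compared CpGs with neighbors at most 300 bp apart, of which the island of the inner start is 1. The 6 CpGs in the last coding exon of Peg3, at chr7:6711467-6711610, were the most methylated of these stretches in all 3 cell types. Their means were 57.2% and 67.8% in mESC replicates 1 and 2, 78.8% and 90.7% in C-iPSC replicates 1 and 2, and 95.4% and 87.4% in 4F-iPSC replicates 1 and 2. Peg3 thus had opposite shifts in C-iPSCs at its 2 measured places: relative to mESCs, the difference was -31.9 points in the first exon and 22.2 points in the last, and libraries of these cell types overlapped at neither place.

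In an intron stretch of Usp29 with 8 CpGs, at chr7:6781675-6782052, the mean of C-iPSCs was not below that of 4F-iPSCs. The means were 46.9% and 48.9% in mESC replicates 1 and 2, 56.6% and 74.4% in C-iPSC replicates 1 and 2, and 57.8% and 58.2% in 4F-iPSC replicates 1 and 2. The wide gap between the C-iPSC replicates spanned both 4F-iPSC libraries, so that both iPSC types could not be separated there. Toward the other end of the gene, the 8 CpGs at chr7:6952760-6953001, of which 4 lie in soft-masked repeat sequence, rose from mESCs to C-iPSCs to 4F-iPSCs. Their means were 43.8% and 49.7% in mESC replicates 1 and 2, 65.4% and 70.6% in C-iPSC replicates 1 and 2, and 78.5% and 79.0% in 4F-iPSC replicates 1 and 2. No libraries of different cell types overlapped in this stretch, and it held 4 of the 16 CpGs called between 4F-iPSCs and mESCs. The CpG at chr7:6952806 was called in both iPSC types, with levels of 47.2% and 47.2% in mESC replicates 1 and 2, 86.8% and 87.7% in C-iPSC replicates 1 and 2, and 92.8% and 83.95% in 4F-iPSC replicates 1 and 2.

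The best measured CpG of the locus gave the same order. This CpG, at chr7:6914402 in an intron of Usp29, had between 177 and 415 reads per library. Its level was 39.6% and 50.3% in mESC replicates 1 and 2, 57.7% and 68.1% in C-iPSC replicates 1 and 2, and 84.1% and 78.6% in 4F-iPSC replicates 1 and 2. Not all of the gene followed: the 4 CpGs near chr7:6770355 were below 18% in each cell type with the replicates summed, and the order of the cell types was not the same at all 4.

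Across all genes, promoters of 1 kb to each side of the annotated starts were compared by limma on the log2 odds of methylated reads, in 17877 promoters with at least 5 compared CpGs. The Peg3 promoter holds the 5 CpGs of the shared start, and the Usp29 promoter the same 5 and the 6 of its inner start, so that both genes are largely 1 observation. Peg3 was lower in C-iPSCs than in mESCs by a log2 odds difference of -3.28 (SE 0.486, limma adjusted p = 1.47e-08), a call made in this direction at 0.241% of the promoters. In 4F-iPSCs it lay above C-iPSCs by 4.36 (SE 0.486, limma adjusted p = 6.14e-16), as were 2.41% of the promoters. Against mESCs its difference in 4F-iPSCs was 1.08 (SE 0.486, limma adjusted p = 0.146) and missed the threshold, in a comparison where 14.8% of the promoters were called higher. Usp29 had differences of -1.96 and 3.04 in the first and second of these comparisons (limma adjusted p = 0.00478 and 2.03e-07). The first of these calls was lost without mESC replicate 1, mESC replicate 2, or C-iPSC replicate 1 (limma adjusted p = 0.156, 0.159, and 0.115). With each annotated start taken apart, the inner Usp29 start had 0.68 in either (limma adjusted p = 1.0 and 0.959), so Usp29 passed the threshold with the CpGs of the shared start and not with those of its inner start. Limma found no variation of the spread between promoters beyond sampling and used 1 variance, 0.236, for all of them, while that of Peg3 alone was 0.151. With the spread of each promoter alone, limma called 0 promoters of the genome in any comparison, with 1375, 3237, and 1394 at an unadjusted p under 0.05 for C-iPSCs against mESCs, 4F-iPSCs against mESCs, and 4F-iPSCs against C-iPSCs. The limma adjusted p of Peg3 was then 0.602, 0.333, and 0.412, so that its calls rest on the shared spread.

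Other promoters that carry a maternal imprint were also lower in C-iPSCs. Of 9 such promoters, Plagl1, Mest, Peg10, Snrpn, Kcnq1ot1, Airn, Nnat, Zrsr1, and Peg13, all had a lower mean level in C-iPSCs than in mESCs, and 8 were called lower by limma, again beside 0.241% of all promoters. Mest was the exception, with a limma adjusted p of 0.682. Without any 1 of the mESC and C-iPSC libraries fewer of the 8 were called lower, and fewer of all promoters as well. The median log2 odds difference of the 9 promoters was -2.66, beside 0.149 over all promoters, and that of Peg3 was -3.28. Against C-iPSCs, 8 of the 9 were called higher in 4F-iPSCs, all but Peg13, beside 2.41% of all promoters. Against mESCs, 4 were called higher in 4F-iPSCs, beside 14.8% of all promoters. Without either mESC library fewer of the 9 were called higher, and fewer of all promoters as well. On the arcsine scale 7 of the 9 were called, where 3118 of 17877 promoters were called higher. Peg13 was the only one of the list with a lower mean level in 4F-iPSCs than in mESCs. Peg3 thus had the direction of the list in C-iPSCs.

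The promoters of Plagl1, Peg10, and Mest, imprinted genes for a zinc finger protein, a retrotransposon-derived protein, and a hydrolase-like protein, were set beside Peg3 in each library. Plagl1 (43 CpGs) came nearest, with 43.1% and 39.5% in mESC replicates 1 and 2, 5.41% and 10.0% in C-iPSC replicates 1 and 2, and 51.6% and 58.6% in 4F-iPSC replicates 1 and 2. Peg10 (11 CpGs) was at 10.0% and 3.66% in replicates 1 and 2 of C-iPSCs, 20.2% and 30.4% in those of mESCs, and 59.7% and 60.7% in those of 4F-iPSCs. Mest (6 CpGs) differed least between mESCs (22.7% and 18.1%) and C-iPSCs (12.2% and 15.7%), and 4F-iPSCs were at 42.1% and 49.7%. Peg3 minus Mest fell by 25.4 points from mESCs to C-iPSCs, and Peg3 minus Peg10 fell by 13.5 points (-8.37 without C-iPSC replicate 1). Peg3 minus Plagl1 differed by 1.67 points between these cell types, within the spread of the mESC libraries, and by -3.58 to 6.93 points without 1 library. With the CpGs of both islands in place of the shared start, the differences to Mest, Peg10, and Plagl1 were -5.07, 6.91, and 22.1 points. The difference to Mest thus kept its direction at a smaller size, that to Peg10 turned, and that to Plagl1 grew. In 9 such differences, the smallest exact permutation p was 0.333 and the smallest adjusted p was 0.5, so none could pass a threshold in this design. The largest difference between 4F-iPSCs and mESCs on the list was at Peg10, at 34.9 points, followed by Zrsr1, Nnat, and Airn at 32.2, 30.9, and 26.1 points, beside 20.1 points at Peg3.

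**Figure D4:**
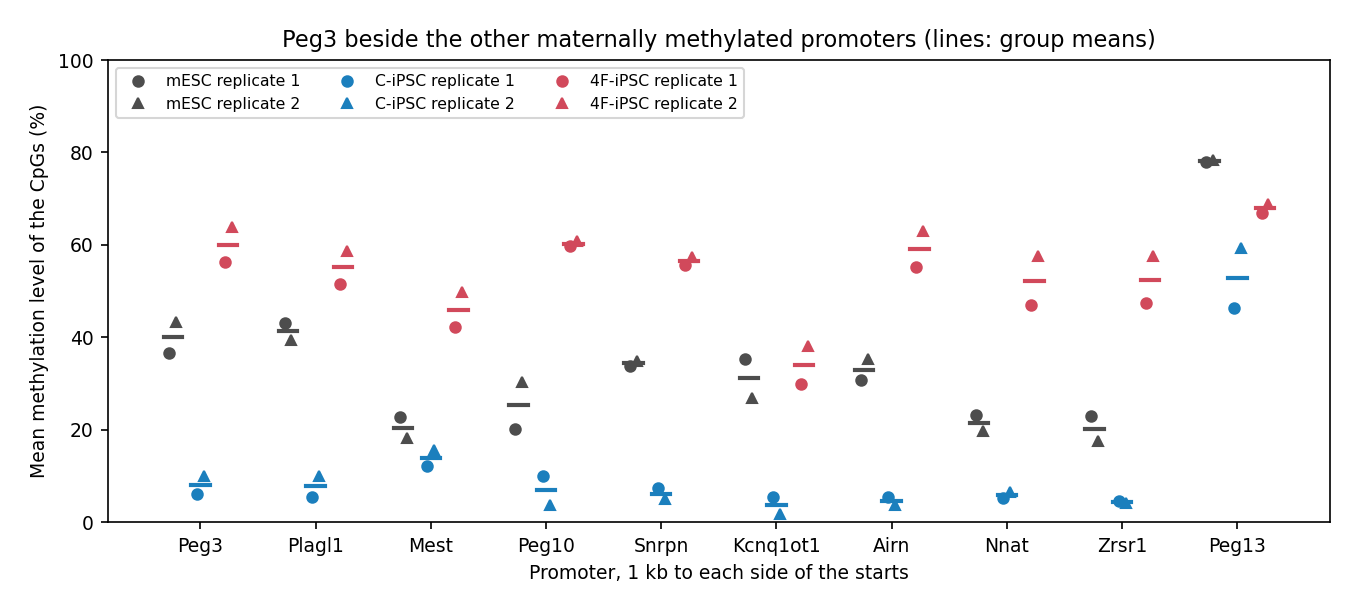
Mean methylation level in percent of the CpGs within 1 kb of the starts of Peg3 and of 9 other promoters methylated on the maternal allele, with 1 point per library and a line at each group mean. C-iPSC libraries lie below the mESC libraries at each of the 10 promoters.

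At the far end of the domain, Zim3 and Zfp264 shifted in the other direction in C-iPSCs. Relative to mESCs, their direction in 4F-iPSCs was that of the shared start. These 2 genes start beside each other just outside the window, so that nearly all of their promoter CpGs are the same. The 15 CpGs of the Zfp264 promoter were at 18.4% and 19.1% in mESC replicates 1 and 2, 37.8% and 61.1% in C-iPSC replicates 1 and 2, and 74.0% and 70.6% in 4F-iPSC replicates 1 and 2. In 4F-iPSCs this promoter was higher than in mESCs by a log2 odds difference of 3.67 (limma adjusted p = 9.50e-12). A call in this direction was made at 14.8% of the promoters. In C-iPSCs this promoter was higher than in mESCs, where the shared start was lower, with a log2 odds difference of 2.25 (limma adjusted p = 6.96e-04), a call made in this direction at 3.99% of the promoters. The call was lost without C-iPSC replicate 2 or mESC replicate 1 (limma adjusted p = 0.509 and 0.213). The number of promoters called in this direction also rests on single libraries: the 713 became 59 and 47 without these libraries, 191 without mESC replicate 2, 829 without C-iPSC replicate 1, and 1255 without either 4F-iPSC library. On the arcsine scale, 1861 promoters were called higher in C-iPSCs than in mESCs in place of 713. The promoter of Zim1, the zinc finger gene beyond Peg3 (7 CpGs), was at 12.2% or less in all 6 libraries. Within this low range it was called higher in 4F-iPSCs than in mESCs (log2 odds difference 1.80, limma adjusted p = 0.00198) and than in C-iPSCs (2.43, limma adjusted p = 1.32e-04), and the first of these calls was lost without mESC replicate 1 (limma adjusted p = 0.116). The promoter of Zim2 had no compared CpG. The window also holds Mir3099 and 8 gene models without a name of known function. Of their promoters, that of Gm27675 takes in the 5 CpGs of the shared start and that of Gm44587 holds 1 compared CpG, at chr7:6900104, with no more than 11 reads in any library. The other 7 had none.

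The cell types were checked at the promoters of genes for pluripotent cells and for fibroblasts, the cells of origin and the feeder cells named by the labels. Of the pluripotency genes, Nanog (2 CpGs), Pou5f1 (7 CpGs), and Zfp42 (7 CpGs) were measured, and Dppa3 and Tdgf1 had no compared CpG. Their promoter levels were between 0 and 22.4% in all libraries, the highest at Pou5f1 in 4F-iPSC replicate 2. Pou5f1, the gene of Oct4, was called higher in 4F-iPSCs than in mESCs (limma adjusted p = 0.0198) and than in C-iPSCs (limma adjusted p = 0.0137). Both calls were lost without 4F-iPSC replicate 2 or mESC replicate 1, and the second also without mESC replicate 2 or either C-iPSC library. Its promoter had 488 and 527 reads in mESC replicates 1 and 2, 8407 and 7219 in C-iPSC replicates 1 and 2, and 8509 and 7286 in 4F-iPSC replicates 1 and 2. The iPSCs carry the Oct4-GFP reporter, and reads of the reporter and of the gene's own promoter cannot be told apart here. Of the fibroblast genes, Col1a2, Thy1, and Twist2 were measured, with levels from 5.83% to 20.9%, and Col1a1 and Postn had no compared CpG. No fibroblast library was analysed here, so how far these levels tell pluripotent cells from fibroblasts was not tested, nor was a part of remaining feeder cells in the values of the shared start.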

How the data were processed

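RRBS read pairs were aligned by the authors to mm10 with BSMAP 2.90, only uniquely mapped pairs were kept, and CpG methylation was measured with MOABS. Per library, the deposited values give, for each CpG, the count of reads and of methylated reads, on each strand and in all, without normalization. The fraction deposited beside them equals the ratio of both counts within 0.001 at every CpG and was not used further. Libraries held between 53694199 and 96534037 reads on CpGs, with medians of 31 to 54 reads per CpG. A region's level is the mean over its compared CpGs that reach 10 reads in that library.

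Islands were merged windows of 200 bp with a GC share from 0.5 and a ratio of observed to expected CpGs from 0.6, overlapping 1 kb to each side of an annotated start. Annotation was GENCODE basic on GRCm38. Fisher's exact test was run on all compared CpGs. The quasi-binomial model had its dispersion shrunken by limma 3.58.1 in R 4.3.3, not below 1. Its prior came from CpGs with levels from 0.1 to 0.9. It tested slightly fewer CpGs: 1105643 between C-iPSCs and mESCs, 1106119 between 4F-iPSCs and mESCs, and 1105967 between both iPSC types. Limma was run on promoters, with 0.5 added to each count. Limma's prior had infinite degrees of freedom. These steps were tested on simulated data. Other steps used NumPy 2.4.6 and SciPy 1.17.1. Genes named were Peg3, Usp29, other genes of the window and the Peg3 domain, cell type markers, and a list of maternally methylated promoters, with values for Mest, Peg10, Plagl1, and the 3 others with the largest 4F-iPSC minus mESC difference. Peg13 and the single CpGs given by position were chosen after their values were seen. Members, lists, and tests were chosen with earlier results of these data known. Alternatives were the read minimum, weighting, strand, island rule, thresholds, test, scale, spread, each library left out, and a replicate block. Expression data and the Peg3 antisense transcript were not used here.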

Additional observations from a re-analysis of the deposited data

How the results depend on the processing

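The level differences of both islands and their contrast with the rest of the locus kept their direction under each read minimum, weighting, strand, and island rule tried and without each library, with 1 exception: the inner Usp29 start alone gave 5.43 points for C-iPSCs minus mESCs. Their sizes moved, for both islands from -15.5 to -7.64 points in C-iPSCs minus mESCs without 1 library. Some settings kept the same 11 island CpGs and so could not move the island differences. These were at least 5 reads, at least 10 reads in all 6 libraries, and 1 kb to each side of the starts. The stricter island rule kept the shared start alone. The islands taken apart, both islands in place of the shared start, crossed replicate numbers, each annotated start apart, and other ways to share the spread were chosen after seeing the data. With a difference above 0.25 in place of 0.333, 13 CpGs were called higher and 4 lower in C-iPSCs against mESCs, and 25 higher in 4F-iPSCs against mESCs; above 0.5 these were 0, 0, and 2. The quasi-binomial model called 2 CpGs higher in C-iPSCs. Without 1 library, the 5 CpGs higher in C-iPSCs became 4 to 11 (11 without C-iPSC replicate 1) and the 1 lower CpG 1 to 3 (3 without mESC replicate 1 or C-iPSC replicate 2). The 16 CpGs higher in 4F-iPSCs than in mESCs became 8 to 17 (8 without mESC replicate 1). The cause was not tested. The share of all compared CpGs called under these other thresholds or without 1 library is not given here. These counts of the locus thus cannot be set against the genome. With both islands in place of the shared start, the difference to Mest was -4.25 points and that to Plagl1 -19.7 points for 4F-iPSCs minus C-iPSCs, and that to Peg10 was 6.91 points for C-iPSCs minus mESCs, all of the opposite sign. Without 1 library, the difference to Mest was -11.1 to 0.334 points for 4F-iPSCs minus mESCs, that to Peg10 -6.44 to 3.78 points for 4F-iPSCs minus C-iPSCs (1.99 without 4F-iPSC replicate 1), and that to Plagl1 -3.58 to 6.93 points for C-iPSCs minus mESCs, so their signs are not settled. With the spread of each promoter alone, the log2 odds differences -3.28 and 4.36 of Peg3 and -1.96 and 3.04 of Usp29 were unchanged but missed the threshold (limma adjusted p = 0.602, 0.412, 0.611, and 0.525). The inner Usp29 start alone gave 0.68 for both comparisons. Without 1 library, Usp29 in C-iPSCs minus mESCs ranged from -2.37 to -1.56 and missed the threshold without mESC replicate 1, mESC replicate 2, or C-iPSC replicate 1 (limma adjusted p = 0.156, 0.159, and 0.115), each fit taking the lone library to vary like the others. On the arcsine scale, 4F-iPSCs minus mESCs passed it for Peg3 (0.186, limma adjusted p = 8.45e-04) and Usp29 (0.180, limma adjusted p = 0.00329).

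A replicate block cannot change the level or log2 odds differences, since each cell type has 1 library of each replicate number. The island differences thus stayed at -11.6, 16.2, and 27.7 points. With the block, the counts of strongly differential CpGs were 6 and 1 for C-iPSCs above and below mESCs. They were 16 and 0 for 4F-iPSCs against mESCs, and 5 and 0 for 4F-iPSCs against C-iPSCs. The blocked limma differences were -3.28, 1.08, and 4.36 for Peg3 and -1.96, 1.08, and 3.04 for Usp29, with no call changed. Same-numbered replicates deviated together with correlations across CpGs of 0.0410 between mESCs and C-iPSCs, -0.226 between mESCs and 4F-iPSCs, and 0.118 between both iPSC types, so the numbers were not taken as pairs. With crossed numbers, 4F-iPSCs had 16 CpGs above and 0 below mESCs.

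With 18 to 194 reads per library, levels at the shared start carry wide intervals, and 5 neighboring CpGs stand for the whole island. An exact permutation test of 2 libraries against 2 cannot pass the threshold, so an unchanged p says nothing about stability.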
